A study of Mus musculus with 6 samples.

Results

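The 40 genes described here carry pyruvate into mitochondria, turn it into acetyl-CoA or oxaloacetate, run the tricarboxylic acid (TCA) cycle, and shuttle malate, aspartate and citrate between mitochondria and cytosol. They were chosen by name, with earlier results of these data known. All 40 of 40 matched a gene ID among the 56980 IDs of the count table. Each of the 40 passed the filter on low counts and was among the 18558 genes tested. The lowest count of any member in any library was 31, for Me3.

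The counts came from whole pancreatic islets of mice aged 14 weeks, in 6 RNA-seq libraries. The 3 knockout libraries had the genotype SSBP3F/F; MIP-CreER, that is, floxed alleles of Ssbp3 together with a Cre recombinase that tamoxifen activates and the mouse insulin promoter drives. The 3 control libraries had the genotype SSBP3F/F and came from littermates, so the floxed alleles were shared by both groups. SSBP3 is a co-regulator that binds the cofactor LDB1. The insulin promoter acts in beta cells, whereas whole islets also hold alpha, delta and other cells. Mice that carry MIP-CreER with unfloxed Ssbp3 are not among the libraries, so effects of the transgene and of losing SSBP3 cannot be told apart. Whether the islets of 1 mouse or of several went into a library is not given in the labels, and p-values then measure only the spread between these libraries, which may be technical.

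As background, pyruvate made by glycolysis crosses the inner mitochondrial membrane through a carrier of MPC1 and MPC2. The pyruvate dehydrogenase complex then makes acetyl-CoA from it, and pyruvate carboxylase makes oxaloacetate. Beta cells are known for sending much of their glucose carbon through these steps and for keeping lactate dehydrogenase A low. Their TCA cycle feeds the respiratory chain, whose ATP closes potassium channels and so starts insulin release. The malate-aspartate shuttle and citrate and malate export link the cycle to cytosolic NADH and NADPH.

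Library totals ran from 14907641 to 93841878 counts in the knockout group and from 17587055 to 225428920 in the control group, and knockout 1 and control 1 were by far the shallowest. Levels are given as CPM, counts per 1000000, over library sizes scaled by TMM factors, which correct for differences in RNA composition. A gene is called when the quasi-likelihood test of edgeR gave a Benjamini-Hochberg adjusted p under 0.05 over all 18558 genes. Of these, 691 were called higher and 621 lower in knockout islets, and with upper-quartile factors the split was 613 and 829. Without knockout 1 and control 1 the counts were 76 and 48. Ssbp3 itself measured 52.3, 58.1 and 57.1 CPM in knockout 1, 2 and 3, against 65.8, 81.3 and 74.2 CPM in control 1, 2 and 3 (log2 fold change -0.40, SE 0.117, edgeR adjusted p = 0.0581). The knockout libraries lay below the control libraries, without a call. These counts are per gene, not per exon, and take in all cells of the islets. They do not measure how far Ssbp3 was deleted. The 12 beta-cell markers summed to 142369 to 160478 CPM in knockout and 189786 to 244889 CPM in control libraries, with 4 of them called lower. Ins2 and Ins1, with means of 94688 and 35653 CPM in knockout islets, made up most of those sums. Nkx6-1, Slc2a2, Slc30a8 and Glp1r overlapped between the groups, and Glp1r had the higher mean in knockout islets. The remaining beta-cell markers lay lower in every knockout library. The 14 acinar markers ran from 25653 to 87792 CPM in knockout and from 33499 to 67093 CPM in control libraries. Marker sums of some other cell types were apart. Delta markers (3 genes, 2 called lower) summed to 2121 to 2582 CPM in knockout and 3326 to 5290.1 CPM in control libraries, most of it Sst. Endothelial markers (6 genes, 1 called higher) summed to 224 to 284 CPM in knockout and 196 to 220.2 CPM in control, though Pecam1, Kdr and Flt1 overlapped. Sums for alpha, pancreatic polypeptide, stromal, immune, Schwann and adipocyte markers overlapped between the groups. Of 5 duct markers, Cftr was called higher in knockout islets, Spp1 was lower in every knockout library without a call (mean 635 CPM in knockout and 1344 CPM in control, edgeR adjusted p = 0.0550), and Krt19, Krt7 and Sox9 overlapped between the groups. In bulk RNA, fewer cells of a type and less RNA per cell cannot be told apart, and the part of cell makeup in the results below was not tested.

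In knockout islets, Ogdhl rose 2.32-fold while Fh1, Mpc1, Mdh1, Idh3b and Sdhc fell by factors of 1.39 to 1.64. Ogdhl encodes a relative of the first subunit of the 2-oxoglutarate dehydrogenase complex. The genes that fell encode fumarase, a pyruvate carrier subunit, cytosolic malate dehydrogenase, a subunit of NAD-linked isocitrate dehydrogenase and a membrane anchor of succinate dehydrogenase. In all, 6 of 40 members were called, where 7.07% of all genes tested were. Of the 40 members 1 was called higher, a share of 2.50% against 3.72% of all genes tested, and 5 were called lower, a share of 12.5% against 3.35%. The other 34 were not called, among them citrate synthase, pyruvate carboxylase and every subunit of the pyruvate dehydrogenase complex. Over the 40 members the median log2 fold change (knockout over control) was -0.06, with quartiles of -0.31 and 0.19, beside a median of -0.0016 and quartiles of -0.31 and 0.29 over all genes tested. At an unadjusted p under 0.05 there were 16 of 40 members, against 4014 of 18558 genes. Every knockout library lay above every control library for 7 members (17.5%, against 14.0% of all genes tested) and below for 14 members (35%, against 14.1%). Without knockout 1 and control 1, no member was called higher by edgeR and Fh1 was the 1 member called lower. In that fit 12 members had an unadjusted p under 0.05. With a filter of 1 CPM and all libraries, 7 members and 700 of 14144 genes were called lower. Because the members were chosen with earlier results of these data known, the shares above do not measure how unusual the list is.

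**Figure D1:**
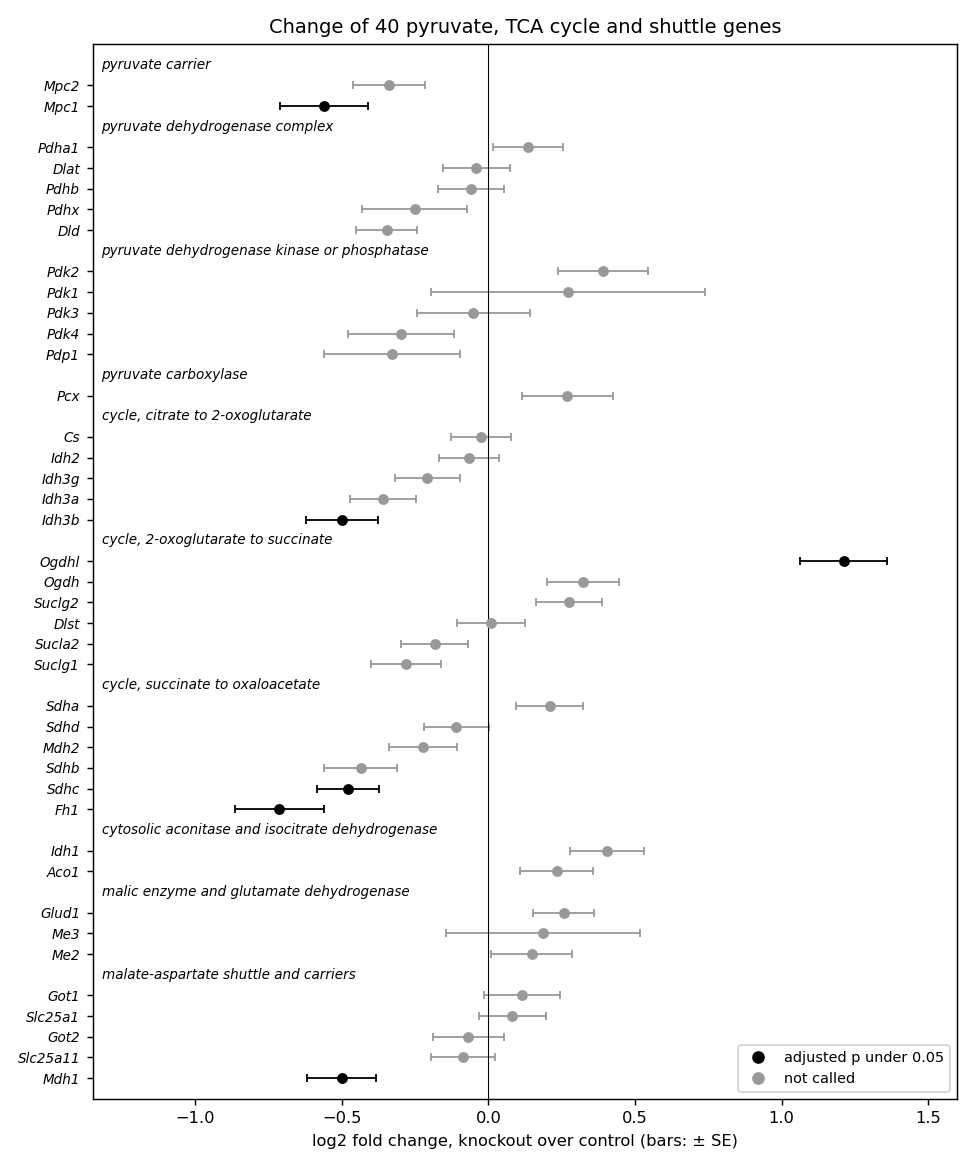
Log2 fold change of knockout over control for the 40 members, grouped by role, with bars for ± SE from edgeR (3 libraries per group). Black points mark the 6 genes called at an adjusted p under 0.05; Ogdhl at 1.21 stands to the right of the rest, and the remaining members lie between -0.71 and 0.40.

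Summed over all 40 members, the level was 3119.9 ± 80.2 CPM in knockout and 3201 ± 166 CPM in control islets (SD, n = 3 per group), and the groups overlapped. The group means differed by less than the SD of the control libraries, while sums over parts of the cycle differed in direction. The genes of the steps between 2-oxoglutarate and succinate summed to 689 ± 29.4 CPM in knockout and 532 ± 35.2 CPM in control islets. Those of the steps between succinate and oxaloacetate summed to 741 ± 11.3 CPM in knockout and 887 ± 57.5 CPM in control islets. Neither sum overlapped between the groups, the first being higher and the second lower in every knockout library. These sums weigh abundant genes most and were not tested. In the first, Ogdhl alone had a mean of 219 CPM in knockout and 94.3 CPM in control islets. With Ogdhl left out, the first sum overlapped between the groups. Not every gene went the way of its sum. Sucla2 and Suclg1 in the first lay lower, and Sdha in the second lay higher, in every knockout library.

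**Figure D2:**
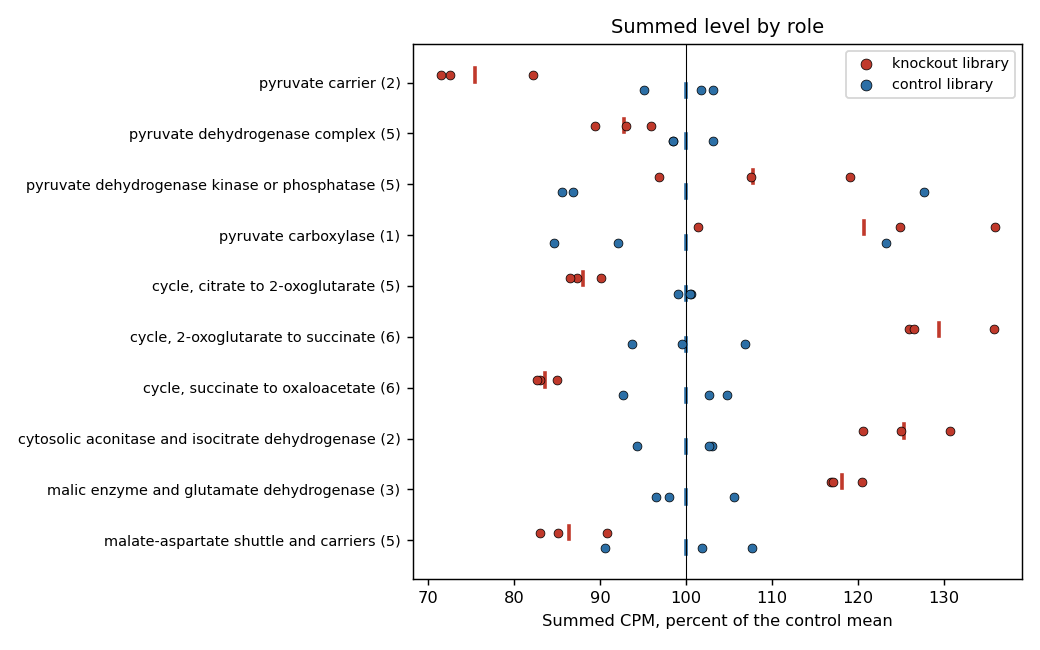
Summed CPM of the members of each role (number of genes in brackets) as a percentage of the control mean, on the horizontal axis; each point is a library and short bars are group means. Knockout libraries lie right of all control libraries for the steps from 2-oxoglutarate to succinate, for cytosolic aconitase and isocitrate dehydrogenase and for malic enzyme and glutamate dehydrogenase, and left of them for the pyruvate carrier, the pyruvate dehydrogenase complex and the steps on either side in the cycle. For the steps from 2-oxoglutarate to succinate, the groups would overlap without Ogdhl.

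Promoter sequences are shown for Ogdhl, the member that rose, and for Fh1, Mdh1 and Idh3b, members that fell and have a single entry in the table used. They come from RefSeq on build GRCm38.p6, which is not the build of the counts, and run 5′ to 3′ from 250 bases before to 50 bases after the gene's start. Capitals mark matches, on either strand, to any of 5 motifs searched: AAGGTCA (ERR receptors), the NRF1 motif, CCGGAAG (ETS factors), GGGCGG (SP factors) and TAATTA (LIM-homeodomain factors, which LDB1 binds). The motifs share no letters with each other in these 4 windows.
Ogdhl (chr14:32321769-32322068, plus strand): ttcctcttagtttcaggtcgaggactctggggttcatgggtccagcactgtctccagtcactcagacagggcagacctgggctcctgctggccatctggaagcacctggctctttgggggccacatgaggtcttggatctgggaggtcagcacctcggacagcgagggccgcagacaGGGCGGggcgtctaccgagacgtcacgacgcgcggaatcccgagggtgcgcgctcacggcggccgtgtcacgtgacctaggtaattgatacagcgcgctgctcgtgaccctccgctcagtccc
Fh1 (chr1:175625586-175625885, minus strand): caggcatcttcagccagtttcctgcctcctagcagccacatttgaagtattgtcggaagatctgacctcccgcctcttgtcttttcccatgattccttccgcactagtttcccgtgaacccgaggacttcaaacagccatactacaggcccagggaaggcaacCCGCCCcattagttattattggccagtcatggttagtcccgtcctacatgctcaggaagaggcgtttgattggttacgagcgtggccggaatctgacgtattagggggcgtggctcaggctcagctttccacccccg
Mdh1 (chr11:21571885-21572184, minus strand): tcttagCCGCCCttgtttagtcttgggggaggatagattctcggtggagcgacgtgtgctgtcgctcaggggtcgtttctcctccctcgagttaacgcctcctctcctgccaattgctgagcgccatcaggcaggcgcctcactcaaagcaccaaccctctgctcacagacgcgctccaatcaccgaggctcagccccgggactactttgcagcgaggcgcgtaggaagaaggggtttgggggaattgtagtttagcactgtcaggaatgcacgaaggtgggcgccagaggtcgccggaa
Idh3b (chr2:130284402-130284701, minus strand): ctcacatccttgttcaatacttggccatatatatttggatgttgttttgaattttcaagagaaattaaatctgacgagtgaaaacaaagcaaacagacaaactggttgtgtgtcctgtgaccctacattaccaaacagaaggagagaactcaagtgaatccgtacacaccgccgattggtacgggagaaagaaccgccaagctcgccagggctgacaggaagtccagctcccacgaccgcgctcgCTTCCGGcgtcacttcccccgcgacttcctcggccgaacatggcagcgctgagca
Ogdhl, Fh1 and Mdh1 each held 1 match to GGGCGG, and Idh3b held 1 to CCGGAAG. The Ogdhl window had 63.7% G and C and 23 CG pairs of bases, against 50.3% and 18 in Idh3b. GGGCGG was in 35.7% of the 32851 promoters in the table and in 65.2% of the 46 promoters of the 36 members that have one. CCGGAAG was in 8.86% of all and 15.2% of member promoters, AAGGTCA in 4.72% and 6.52%, the NRF1 motif in 6.23% and 8.70%, and TAATTA in 5.29% and 4.35%. None of the last 3 motifs was found in the promoter windows of the 5 called members with an entry. A match is only these letters in this window, and says nothing of binding. The promoters of the table were not matched to those of the members for G and C content or for expression. Idh3a, Me2, Pdp1 and Sdhc had no entry.

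Both genes of the pyruvate carrier measured lower in every knockout library, as did 14.1% of all genes tested. Of the 2 genes 1 was called lower, where 3.35% of all genes tested were. Mpc1 (ENSMUSG00000023861), which forms the carrier with MPC2, measured 14.2, 13.98 and 12.3 CPM in knockout 1, 2 and 3, against 21.3, 20.5 and 17.8 CPM in control 1, 2 and 3. All knockout libraries lay below all control libraries, and Mpc1 fell 1.47-fold (log2 fold change -0.56, SE 0.151, edgeR adjusted p = 0.0423). The call was lost whichever single library was left out (adjusted p 0.0504 to 0.172) and without knockout 1 and control 1 (0.186). Of the exon bases of Mpc1, 23.1% are shared with a transcript on the opposite strand, whose reads cannot be told apart without a stated strand setting. Mpc2 (ENSMUSG00000026568), its partner in the carrier, measured 34.4, 28.9 and 29.9 CPM in knockout 1, 2 and 3, against 38.8, 40.4 and 38.3 CPM in control 1, 2 and 3. Its groups did not overlap either, but it was not called (log2 fold change -0.34, SE 0.122, edgeR adjusted p = 0.120), nor was it under any of 15 alternatives.

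The pyruvate dehydrogenase complex was not called in any subunit. Pdhb (ENSMUSG00000021748), the beta subunit of its first enzyme, measured 84.7, 71.8 and 71.8 CPM in knockout 1, 2 and 3, against 82.1, 77.3 and 78.2 CPM in control 1, 2 and 3 (log2 fold change -0.06, SE 0.112, edgeR adjusted p = 0.817). The groups overlapped. Dld (ENSMUSG00000020664), the dihydrolipoyl dehydrogenase that the pyruvate and the 2-oxoglutarate complexes share, measured 64.04, 61.6 and 66.9 CPM in knockout 1, 2 and 3, against 82.3, 82.2 and 80.5 CPM in control 1, 2 and 3. All knockout libraries were lower, and the change missed the threshold (log2 fold change -0.35, SE 0.104, edgeR adjusted p = 0.0649); Dld was called with upper-quartile factors and with a filter of 1 CPM (adjusted p 0.0352 and 0.0452). The alpha subunit gene Pdha1 had a log2 fold change of 0.14, the acetyltransferase Dlat of -0.04 and Pdhx, which anchors DLD in the complex, of -0.25, with adjusted p of 0.566, 0.878 and 0.458. For Pdha1, 16.1% of the exon bases lie opposite exons of Map3k15. Of these 3, Pdhx alone was without overlap, lower in knockout islets.

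No gene of the kinases that switch the complex off was called. Pdk2 (ENSMUSG00000038967), the kinase with the smallest p, measured 30.8, 24.2 and 24.1 CPM in knockout 1, 2 and 3, against 22.8, 17.9 and 19.6 CPM in control 1, 2 and 3 (log2 fold change 0.39, SE 0.153, edgeR adjusted p = 0.155). Every knockout library was above every control library, without a call. Pdk1 (ENSMUSG00000006494), the most abundant kinase gene here by CPM, measured 43.7, 39.3 and 51.1 CPM in knockout 1, 2 and 3, against 19.4, 27.3 and 63.3 CPM in control 1, 2 and 3 (log2 fold change 0.27, SE 0.467, edgeR adjusted p = 0.804). Control 3 was the highest of all 6 libraries and control 1 the lowest, so the control values spanned the whole knockout range. Without control 3, Pdk1 was called higher in knockout islets, with a log2 fold change of 0.94 (adjusted p = 0.00729), and under the other 14 alternatives it was not called. Without control 1 the log2 fold change was -0.02. Pdk3 (-0.05) and Pdk4 (-0.30), further kinases of the family, and the phosphatase gene Pdp1 (-0.33) had overlapping groups and adjusted p of 0.915, 0.377 and 0.458.

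**Figure D3:**
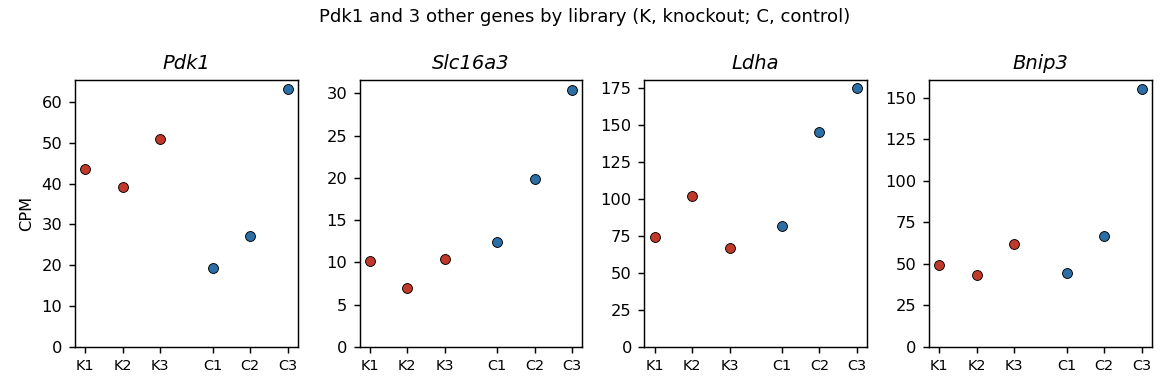
CPM of Pdk1 and, for comparison, of Slc16a3, Ldha and Bnip3 in knockout 1 to 3 (red, K1 to K3) and control 1 to 3 (blue, C1 to C3). Each of the 4 genes was highest in control 3, with 63.3 CPM for Pdk1 and 30.5 CPM for Slc16a3.

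Pcx (ENSMUSG00000024892), the carboxylase that makes oxaloacetate and is abundant in beta cells, measured 133, 108 and 145 CPM in knockout 1, 2 and 3, against 90.2, 98.2 and 131 CPM in control 1, 2 and 3. The groups overlapped, with control 3 above knockout 2, and Pcx was not called (log2 fold change 0.27, SE 0.155, edgeR adjusted p = 0.349) in this or in any of 15 alternatives. On a scale per exon length, which allows levels of different genes to be set side by side, Pcx stood at 27.1 ± 3.95 CPM per kilobase in knockout and 22.4 ± 4.59 in control islets and Pdha1 at 13.5 ± 1.43 CPM per kilobase in knockout and 12.3 ± 0.303 in control islets (SD, n = 3).

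From citrate to 2-oxoglutarate, 1 of 5 genes was called, a subunit of the NAD-linked isocitrate dehydrogenase. Idh3b (ENSMUSG00000027406), a regulatory subunit, measured 39.5, 44.5 and 35.8 CPM in knockout 1, 2 and 3, against 57.2, 59.4 and 52.7 CPM in control 1, 2 and 3. Its highest knockout library stayed below its lowest control library, and Idh3b fell 1.41-fold (log2 fold change -0.50, SE 0.122, edgeR adjusted p = 0.0285). That call was lost without knockout 1, knockout 3, control 1 or control 2 (adjusted p 0.0938, 0.0676, 0.09003 and 0.142) and without knockout 1 and control 1 together (0.206). The catalytic subunit gene Idh3a measured 42.8, 44.8 and 46.7 CPM in knockout 1, 2 and 3, against 60.97, 52.96 and 58.8 CPM in control 1, 2 and 3, also without overlap but not called (log2 fold change -0.36, SE 0.113, edgeR adjusted p = 0.0761); it was called with upper-quartile factors and with length and GC offsets (adjusted p 0.0410 and 0.0252). The third subunit gene, Idh3g, had a log2 fold change of -0.21 (adjusted p = 0.305), again with every knockout library below every control library. All 3 subunits of the enzyme thus lay lower in each knockout library, with 1 of the 3 called. Of all genes tested, 14.1% lay below every control library in every knockout library, and 3.35% were called lower. Cs, the citrate synthase that opens the cycle, measured 86.9, 88.1 and 87.2 CPM in knockout 1, 2 and 3, against 86.4, 93.5 and 86.7 CPM in control 1, 2 and 3 (log2 fold change -0.02, SE 0.103, edgeR adjusted p = 0.925). Its 6 values lay within a narrow band. Idh2 (ENSMUSG00000030541), the NADP-linked mitochondrial enzyme and the member of these steps with the highest CPM, measured 96.3, 88.01 and 93.3 CPM in knockout 1, 2 and 3, against 99.02, 93.1 and 98.5 CPM in control 1, 2 and 3 (log2 fold change -0.07, SE 0.104, edgeR adjusted p = 0.774), with overlap.

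The step after that held the member with the highest log2 fold change. Ogdhl (ENSMUSG00000021913), known mainly from brain and encoding a form of the first, thiamine-dependent enzyme of the 2-oxoglutarate dehydrogenase complex, measured 222, 204 and 231 CPM in knockout 1, 2 and 3, against 83.8, 80.9 and 118 CPM in control 1, 2 and 3. The lowest knockout library stood well above the highest control library, control 3, and Ogdhl rose 2.32-fold (log2 fold change 1.21, SE 0.148, edgeR adjusted p = 0.000531). The call held in 14 of 15 alternatives, each single library left out included, and was lost without knockout 1 and control 1 (log2 fold change 1.13, adjusted p = 0.0776). Ogdh (ENSMUSG00000020456), which encodes the common form of that enzyme, measured 206, 214 and 254 CPM in knockout 1, 2 and 3, against 163, 181 and 195 CPM in control 1, 2 and 3. Its knockout libraries were all higher, without a call (log2 fold change 0.32, SE 0.124, edgeR adjusted p = 0.146). Per exon length, Ogdhl stood at 52.7 ± 3.28 CPM per kilobase in knockout and 22.7 ± 5.0 in control islets and Ogdh at 41.2 ± 4.70 CPM per kilobase in knockout and 32.9 ± 2.92 in control islets (SD, n = 3), so Ogdhl was above Ogdh in knockout islets and below it in control islets. The count ratio of Ogdhl to Ogdh within a library does not rest on a scaling between libraries. On the log2 scale it was 0.11, -0.07 and -0.14 in knockout 1, 2 and 3, against -0.96, -1.16 and -0.72 in control 1, 2 and 3, a difference of 0.91. Dlst, the succinyltransferase core of the same complex, had a log2 fold change of 0.01 (adjusted p = 0.976), and its shared subunit Dld lay lower in knockout libraries, as given above.

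**Figure D4:**
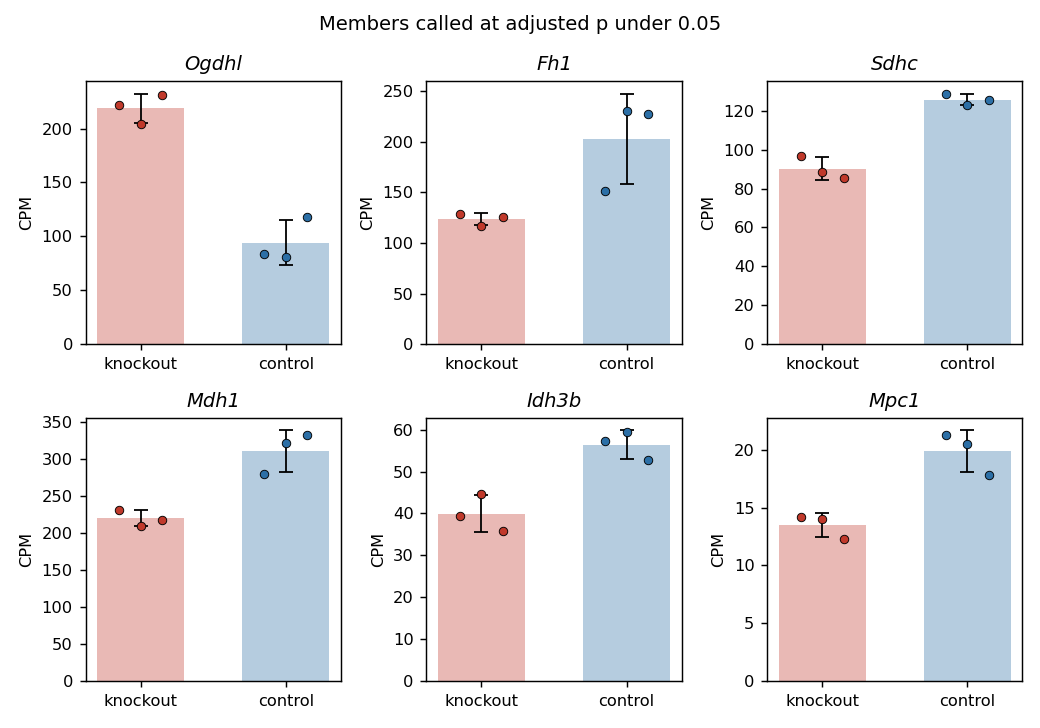
CPM of the 6 called members in knockout (red, left) and control (blue, right) libraries, ordered by p; points are libraries, bars are means and error bars are SD (n = 3). Ogdhl is higher in all 3 knockout libraries, and the other 5 genes are lower in all 3, with control 1 the lowest control library for Fh1.

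Succinyl-CoA synthetase pairs the shared subunit SUCLG1 with SUCLA2, in the form that makes ATP, or with SUCLG2, in the form that makes GTP. The genes of these partners had log2 fold changes of opposite sign. Suclg2 measured 52.1, 48.8 and 49.96 CPM in knockout 1, 2 and 3, against 44.3, 38.96 and 41.6 CPM in control 1, 2 and 3 (log2 fold change 0.27, SE 0.113, edgeR adjusted p = 0.178), with every knockout library higher. Sucla2 measured 47.4, 49.99 and 45.2 CPM in knockout 1, 2 and 3, against 58.5, 50.9 and 52.7 CPM in control 1, 2 and 3 (log2 fold change -0.18, SE 0.114, edgeR adjusted p = 0.390), with every knockout library lower. Neither was called, nor was Suclg1 (log2 fold change -0.28, adjusted p = 0.193), which lay lower without overlap. The log2 ratio of Sucla2 to Suclg2 counts was -0.14, 0.04 and -0.14 in knockout 1, 2 and 3. In control 1, 2 and 3 it was 0.40, 0.39 and 0.34, and the difference was -0.46. This ratio does not allow for exon length, so its sign does not show which gene had the higher level. Per exon length, Sucla2 had a mean of 11.9 CPM per kilobase in knockout and 13.6 in control islets. Suclg2 had a mean of 10.9 CPM per kilobase in knockout and 9.001 in control islets. On that scale mean Sucla2 was above mean Suclg2 in both groups, by less in knockout islets.

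Of the 4 subunit genes of succinate dehydrogenase, which is also complex II of the respiratory chain, 1 was called. It was called lower, as were 3.35% of all genes tested. Sdhc (ENSMUSG00000058076), a membrane anchor, measured 96.8, 88.6 and 85.3 CPM in knockout 1, 2 and 3, against 129, 123 and 126 CPM in control 1, 2 and 3. The control libraries lay close to each other and stood above all knockout libraries, and Sdhc fell 1.39-fold (log2 fold change -0.48, SE 0.106, edgeR adjusted p = 0.0178). The call was lost without knockout 2, control 1 or control 2 (adjusted p 0.0758, 0.0623 and 0.0693) and without knockout 1 and control 1 (0.137). Sdhb, the iron-sulfur subunit gene, measured 66.2, 62.4 and 52.1 CPM in knockout 1, 2 and 3, against 74.3, 88.7 and 80.8 CPM in control 1, 2 and 3. It was also lower throughout and just missed the threshold (log2 fold change -0.44, SE 0.124, edgeR adjusted p = 0.0544), with a call in 6 of 15 alternatives, DESeq2 and limma-voom included. The other anchor gene, Sdhd, overlapped between the groups (log2 fold change -0.11, adjusted p = 0.628). Sdha, the flavoprotein with the active site, measured 187, 188 and 212 CPM in knockout 1, 2 and 3, against 175, 155 and 178 CPM in control 1, 2 and 3 (log2 fold change 0.21, SE 0.114, edgeR adjusted p = 0.320). Its knockout libraries all lay above the control libraries, the opposite order to Sdhb and Sdhc, without a call.

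Fh1 (ENSMUSG00000026526), the fumarase gene, had the lowest log2 fold change of the 40 members. It measured 129, 117 and 126 CPM in knockout 1, 2 and 3, against 151, 230.4 and 227 CPM in control 1, 2 and 3. The 3 knockout libraries lay close together, whereas control 1 stood well below the other controls and still above every knockout library. Fh1 fell 1.64-fold (log2 fold change -0.71, SE 0.152, edgeR adjusted p = 0.0155). Its call was lost without knockout 1 or control 2 (adjusted p 0.0628 and 0.0779) and was kept in the other 13 alternatives; without knockout 1 and control 1 the log2 fold change was -0.91 (adjusted p = 0.0498). Mdh2 (ENSMUSG00000019179), the mitochondrial malate dehydrogenase that closes the cycle, measured 178, 183 and 171 CPM in knockout 1, 2 and 3, against 186, 228 and 207 CPM in control 1, 2 and 3. Its knockout values were all lower, without a call (log2 fold change -0.22, SE 0.115, edgeR adjusted p = 0.290).

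In the malate-aspartate shuttle, which moves cytosolic NADH electrons into mitochondria, the cytosolic dehydrogenase stood out. Mdh1 (ENSMUSG00000020321) measured 231, 209.8 and 218 CPM in knockout 1, 2 and 3, against 279, 321 and 332 CPM in control 1, 2 and 3. The groups were apart, and Mdh1 fell 1.42-fold (log2 fold change -0.50, SE 0.117, edgeR adjusted p = 0.0231). Opposite-strand exons of Wdpcp share 2.03% of its exon bases. The call was lost without knockout 1, knockout 2, control 2 or control 3 (adjusted p 0.0742, 0.106, 0.105 and 0.0561) and without knockout 1 and control 1 (0.118). Per exon length it had the highest level of all 40 members, 85.6 ± 4.26 CPM per kilobase in knockout and 121 ± 10.9 in control islets (SD, n = 3). The transaminase genes Got1 and Got2, cytosolic and mitochondrial, had log2 fold changes of 0.11 and -0.07, the malate carrier Slc25a11 of -0.09 and the citrate carrier Slc25a1 of 0.08. All 4 overlapped between the groups, with adjusted p from 0.671 to 0.8001.

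Cytosolic aconitase and isocitrate dehydrogenase, the malic enzymes and glutamate dehydrogenase held no called gene. Idh1 (ENSMUSG00000025950), the cytosolic NADP-linked isocitrate dehydrogenase, measured 58.9, 50.4 and 50.7 CPM in knockout 1, 2 and 3, against 45.4, 38.05 and 37.6 CPM in control 1, 2 and 3. It was higher in every knockout library and missed the threshold (log2 fold change 0.40, SE 0.126, edgeR adjusted p = 0.0749), and was called with no filter, by limma-voom and with length and GC offsets (adjusted p 0.0480, 0.0471 and 0.0140). Aco1, the cytosolic aconitase that also binds iron-responsive RNA, had a log2 fold change of 0.23 (adjusted p = 0.314). Glud1 (ENSMUSG00000021794), glutamate dehydrogenase, whose activation by leucine stimulates insulin release, measured 147, 143 and 146 CPM in knockout 1, 2 and 3, against 119.6, 128 and 117 CPM in control 1, 2 and 3 (log2 fold change 0.26, SE 0.104, edgeR adjusted p = 0.170). Its groups did not overlap. The malic enzyme genes Me2 and Me3 overlapped, with log2 fold changes of 0.15 and 0.19 (adjusted p 0.594 and 0.802). Me3 had a negative log2 fold change in 2 of 15 alternatives, the lowest being -0.22. Me3, at 2.01 to 5.02 CPM in knockout and 2.92 to 3.13 CPM in control libraries, was the least abundant member.

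Ratios of 8 pairs of members were compared within libraries by an exact permutation test, 2-sided, on log2 ratios. With 3 libraries against 3 the smallest p this test allows is 0.1, so no pair could pass 0.05. The pairs were listed with earlier results of these data known, and no share over other pairs of genes is given beside them. The smallest p was reached by 5 pairs, each 0.16 after Benjamini-Hochberg adjustment over the 8. Besides Ogdhl to Ogdh and Sucla2 to Suclg2, they were Mdh1 to Mdh2 (mean 0.31 in knockout and 0.59 in control islets), Idh1 to Idh2 (-0.80 in knockout and -1.27 in control) and Got1 to Got2 (-1.01 in knockout and -1.20 in control). For the malate dehydrogenases the cytosolic gene was the one that lay further down, and for the isocitrate dehydrogenases and the transaminases the cytosolic gene lay higher relative to the mitochondrial one. Mpc1 to Mpc2, Pcx to Pdha1 and Me3 to Me2 overlapped between the groups (exact p 0.2, 0.5 and 0.9; adjusted 0.267, 0.571 and 0.9).

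**Figure D5:**
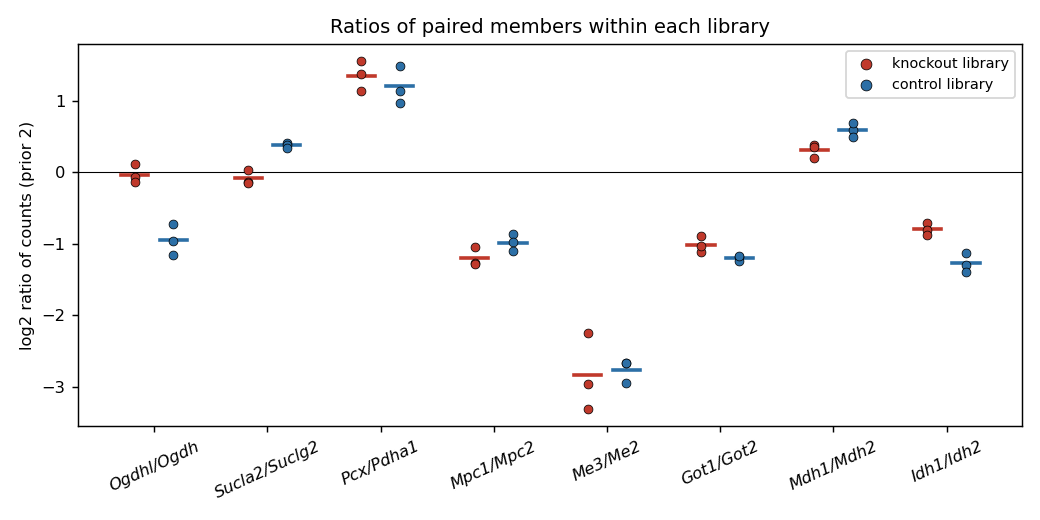
Log2 ratio of the counts of 8 pairs of members within each library (prior count 2) in knockout (red, left of each pair) and control (blue, right) libraries, with short lines at group means. The groups are apart for 5 of 8 pairs, with the widest gap for Ogdhl to Ogdh at -0.03 in knockout and -0.95 in control islets. No share over other pairs of genes is given beside this count.

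Among 40 further genes of these and adjoining steps, 38 were tested, 1 was called higher and 1 lower, a share of 2.63% each, against 3.72% higher and 3.35% lower of all genes tested. Glul, glutamine synthetase, measured 607, 638 and 695 CPM in knockout 1, 2 and 3, against 367, 304 and 354 CPM in control 1, 2 and 3. It rose 1.89-fold, with the groups far apart (log2 fold change 0.92, SE 0.129, edgeR adjusted p = 0.00137). Slc16a3, the lactate exporter MCT4, measured 10.2, 7.02 and 10.4 CPM in knockout 1, 2 and 3, against 12.4, 19.8 and 30.5 CPM in control 1, 2 and 3. It fell 2.31-fold (log2 fold change -1.21, SE 0.2997, edgeR adjusted p = 0.0413), and control 3 was by far the highest library. The call on Slc16a3 was lost without control 3 (adjusted p = 0.0625), control 2 (0.145) or any knockout library (0.105 to 0.160), and both calls were lost without knockout 1 and control 1 (adjusted p 0.0689 for Glul and 0.0776 for Slc16a3). The median log2 fold change of the 38 was -0.04. Knockout libraries all lay above the control libraries for 6 of them (15.8%, against 14.0% of all genes tested). They all lay below for 8 (21.1%, against 14.1%). Only some uncalled genes are named here, picked after their values were seen. Acly, which turns exported citrate back into acetyl-CoA, measured 1753, 1664 and 2492 CPM in knockout 1, 2 and 3, against 1293, 1268 and 1586 CPM in control 1, 2 and 3, without overlap and without a call (log2 fold change 0.51, SE 0.181, edgeR adjusted p = 0.113). The mitochondrial form of phosphoenolpyruvate carboxykinase, Pck2, had a log2 fold change of -0.29 (adjusted p = 0.127). Nnt, the transhydrogenase of the inner membrane, had 2 to 13 counts in knockout and 6 to 92 counts in control libraries, under 0.5 CPM in each, and was not called (adjusted p = 0.209).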

How the data were processed

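The authors deposited a table of raw counts per Ensembl gene ID, whole numbers without normalization. The submitters' processing notes list the tools STAR 2.7.3a, featureCounts, Trim Galore 0.6.7 and FastQC 0.11.9 and the builds GRCm39 and mm39; annotation release, strand setting and handling of read pairs, not given in the sources used here, could not be taken into account. Column names give each library's group but not which animal it was. Between 62.3% and 73.2% of nonzero counts in a library were even, and whether both ends of a fragment were counted was not tested.

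From these counts, R 4.3.3 and edgeR 4.0.16 were used with filterByExpr, TMM factors and the robust quasi-likelihood test of knockout against control over all 6 libraries. SE values derive from that test. Limma 3.58.1 and DESeq2 1.42.0 served as alternatives. Symbols were matched for 52073 of 56980 IDs. CPM per kilobase uses exon lengths of GENCODE M21 (another build), available for 97.6% of genes tested. Every pair of libraries within a group differed beyond sampling noise (chi-square per gene at least 38.6). A count of 3 equals 0.0133 to 0.201 CPM; this covers counting error only.

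The 40 members and all lists were chosen with earlier results of these data known. Named with full values were called members and, in each role, the member with the smallest p and that with the highest mean CPM over all 6 libraries; others were added after their values were seen. Alternatives were other scaling, filters, tools, length and GC offsets, and libraries left out. Of the wider pathway list, 1 gene is not reported here.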

Additional observations from a re-analysis of the deposited data

How the results depend on the processing

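The 6 called members kept their calls under all 8 alternatives that used every library, whereas 1 to 4 of them were called with a single library left out and 1, Fh1, without knockout 1 and control 1. Members called higher numbered 2 with no filter, by limma-voom and with length and GC offsets, 0 without knockout 1 and control 1, and 1 to 2 with a library left out. Members called lower numbered 8 with upper-quartile factors, 1 without knockout 1 and control 1, and 0 to 3 with a library left out (0 without control 2, where 12 members had an unadjusted p under 0.05; edgeR throughout). Over all genes, 1222 were called higher with no filter, 1077 higher and 966 lower by DESeq2, 76 and 48 without knockout 1 and control 1, and 295 to 719 higher and 224 to 590 lower with a library left out. Calls lower over all genes also moved, to 829 of 18558 with upper-quartile factors and 224 of 19268 without control 2. No call changed sign under these alternatives, and no ratio moved by more than its spread. The alternatives for Glul and Slc16a3 were chosen after seeing the data. Log2 fold change correlated with exon length across 18115 genes (Spearman's rho 0.212, a description), and the offsets for length and GC left the members' median at -0.07. No paired analysis was possible because the sample titles of the groups share only 1 number. The column numbers also differ as a set from those of the titles, so columns could not be matched to titles. Knockout 1 and control 1 limit the depth: 3 counts there are 0.171 CPM or more.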

Other observations

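Pdk1, Slc16a3 and Ldha, each highest in control 3, are known targets of the hypoxia-inducible factor. A list of 12 further genes known to be induced by low oxygen, written after those 3 had been seen, was therefore read by library, with no test. Among the control libraries 11 of the 12 were highest in control 3, and 8 were highest there of all 6 libraries. The share of all genes tested that were highest in control 3 is not given here, so these counts have no background beside them. Their summed level was 631, 633 and 719.5 CPM in knockout 1, 2 and 3, against 645, 725 and 1121 CPM in control 1, 2 and 3. Bnip3, a mitophagy receptor, measured 49.2, 43.1 and 61.98 CPM in knockout 1, 2 and 3, against 44.5, 66.9 and 155 CPM in control 1, 2 and 3. Slc2a1, the glucose transporter GLUT1, measured 37.00, 34.4 and 30.6 CPM in knockout 1, 2 and 3, against 35.5, 48.8 and 81.5 CPM in control 1, 2 and 3. Control 3 stood apart for both. Other genes of the list did not peak there: Egln3 and Pfkfb3 were highest in knockout 1 and Ndrg1 in knockout 3. Ndrg1 was higher in every knockout library, with a mean of 163 CPM in knockout and 137 CPM in control islets. Higd1a, a small mitochondrial protein gene, was the exception among controls and was called lower in knockout islets (log2 fold change -0.83, SE 0.176, edgeR adjusted p = 0.0150). Control 3 was also the deepest library, and the part of depth in these values was not tested.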
